A study of Mus musculus with 12 samples.

Results

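The Lrig family comprises 3 genes in the mouse, Lrig1, Lrig2 and Lrig3, which were taken by symbol from the 17365 genes of the table. Each of the 3 was present once, and all 3 were among the 13454 genes with enough counts to be tested. Adult neural stem cells (NSCs) of the subventricular zone (SVZ), a germinal region along the lateral ventricle, were profiled by bulk RNA-seq in 12 libraries. Cells were kept in EGF/FGF (EGF and FGF2), in which they proliferate, or moved to BMP (BMP4), the setting of dormant quiescent NSCs (d-qNSCs), or to BMP/FGF (BMP4 with FGF2), the setting of primed quiescent NSCs (p-qNSCs). Every factor was given at 10 ng/ml and the treatments lasted 3 days. Each condition held 4 libraries, 2 of the ANS4 line (MF1 strain) and 2 of the BL6 line (C57BL/6 strain), both established from wild type mice 6 to 8 weeks old and used below passage 10. The study describes the 2 libraries of a line in a condition as biological replicates. They nonetheless come from 1 line, so p-values measure the spread between these libraries and not between animals. FGF2 was present in EGF/FGF and in BMP/FGF but not in BMP, and EGF was present in EGF/FGF alone.

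LRIG proteins are single-pass membrane proteins whose outer part carries leucine-rich repeats (LRR) followed by immunoglobulin-like domains. LRIG1 binds receptors of the EGFR family, brings them to the ubiquitin ligase CBL and lowers their amount at the surface, and it marks slowly dividing stem cells in skin and gut. LRIG2 binds the guidance receptor neogenin and protects it from shedding by ADAM17. LRIG3 is needed for shaping the inner ear, where it works against netrin, and its effect on EGFR family receptors can oppose that of LRIG1. LRIG proteins also promote BMP signalling in other cells. The comparison of conditions asks how transcripts of the paralogs behave beside Lrig1 as NSCs leave the cycle, and whether they tell d-qNSCs from p-qNSCs as Lrig1 does.

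Library totals were 18069052 to 19451818 counts. Of the NSC marker list, all 6 genes were detected in every library, with summed levels of 7205 to 7704 CPM (counts scaled to a common library total) in EGF/FGF, 9599 to 10482 in BMP and, in BMP/FGF, 12216 to 12437. Within that list Gfap, Slc1a3 and Vim averaged more in both quiescent conditions than in EGF/FGF, whereas Nes averaged 570.4, 128 and 114 CPM and Fabp7 2413, 480.1 and 1364 CPM in EGF/FGF, BMP and BMP/FGF. Summed levels of 3 proliferation genes were 1532 to 1941 CPM in EGF/FGF, 227 to 399.8 in BMP and, in BMP/FGF, 158 to 176. Summed levels of 4 neuroblast and neuron genes were 13.1 to 18.0 CPM in EGF/FGF, 298 to 625 in BMP and, in BMP/FGF, 91.0 to 100.5, with Rbfox3, the marker of mature neurons, at no more than 4 counts in any library. Snap25, of the same list, averaged 2.31 CPM in EGF/FGF, 8.23 in BMP and 3.79 in BMP/FGF. Of the oligodendrocyte lineage, Sox10 had no more than 12 counts and Mog no more than 5 in any library, and Mbp averaged 0.493, 4.09 and 2.94 CPM in the 3 conditions. The sum of 2 ependymal genes was 52.5 to 69.9 CPM in EGF/FGF, 188 to 223 in BMP and, in BMP/FGF, 178 to 190.0 CPM. Of the 5 microglia genes 3 were in the table, summing to at most 3.59 CPM, and of the 4 endothelial genes 2 were, summing to at most 4.26 CPM. These levels moved with the conditions, and their part in the values of the Lrig genes was not tested. In bulk RNA, fewer cells of a type and less RNA per cell cannot be told apart.

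In the GENCODE vM21 annotation of GRCm38, Lrig1 (ENSMUSG00000030029) lies on the minus strand at chr6:94604529-94700158, Lrig2 (ENSMUSG00000032913) on the minus strand at chr3:104396418-104511918 and Lrig3 (ENSMUSG00000020105) on the plus strand at chr10:125966168-126015359. Their longest coding transcripts have 4951 bases in 19 exons, 7099 bases in 18 exons and 4016 bases in 19 exons, and encode 1091, 1054 and 1117 residues. The coding sequences were identical at 62.3% of aligned bases between Lrig1 and Lrig2, 63.9% between Lrig1 and Lrig3 and 64.9% between Lrig2 and Lrig3. No stretch of 31 bases was shared between transcripts of any pair, so reads of the paralogs could be kept apart by the k-mer matching that made these counts. Slc25a26, a mitochondrial carrier gene on the opposite strand, overlaps the 3′ end of Lrig1, and 2.03% of the 31-base stretches of Lrig1 occur on the other strand of another gene. Slc25a26 itself had 59 to 98 counts per library, against 7257 to 15779 for Lrig1. Mir7041 lies inside Lrig1, and Gm38412, Gm9273, Gm43696, A530041M06Rik and 4930509H03Rik lie inside Lrig2. No annotated gene overlaps Lrig3.

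The 250 bases before each RefSeq start site (GRCm38.p6) are shown so that the upstream sequences of 3 genes with different values under the same factors can be set side by side. Each is written 5′ to 3′ on the strand of its gene, with matches to searched motifs, on either strand, in capitals. Lrig1 lies at chr6:94700146-94700395 on the minus strand, Lrig2 at chr3:104511919-104512168 on the minus strand and Lrig3 at chr10:125965969-125966218 on the plus strand.
Lrig1: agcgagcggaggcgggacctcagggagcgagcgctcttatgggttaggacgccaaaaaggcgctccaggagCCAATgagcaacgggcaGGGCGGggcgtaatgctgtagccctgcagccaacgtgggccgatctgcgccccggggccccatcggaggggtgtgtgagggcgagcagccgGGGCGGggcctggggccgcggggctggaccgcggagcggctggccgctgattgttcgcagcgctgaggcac
Lrig2: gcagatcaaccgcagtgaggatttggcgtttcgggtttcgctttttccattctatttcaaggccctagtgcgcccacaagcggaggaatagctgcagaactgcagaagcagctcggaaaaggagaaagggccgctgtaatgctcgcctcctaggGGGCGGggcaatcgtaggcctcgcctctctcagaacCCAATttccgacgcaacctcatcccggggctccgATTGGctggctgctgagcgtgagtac
Lrig3: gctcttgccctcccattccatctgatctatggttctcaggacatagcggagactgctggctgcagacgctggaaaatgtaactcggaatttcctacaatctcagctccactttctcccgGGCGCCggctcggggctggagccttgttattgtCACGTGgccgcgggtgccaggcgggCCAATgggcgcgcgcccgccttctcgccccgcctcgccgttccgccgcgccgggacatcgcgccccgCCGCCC
GC content was 71.6%, 57.6% and 66.0% for Lrig1, Lrig2 and Lrig3, against a median of 52.0% over 27025 promoters of this length, and CpG dinucleotides numbered 26, 17 and 27 against a median of 6. The motifs searched on both strands were the GC box GGGCGG, the CCAAT box CCAAT, the E-box CACGTG, the Smad palindrome GTCTAGAC, the GC-rich Smad site GGCGCC, the ETS core CCGGAA, the CRE TGACGTCA, the AP-1 site TGANTCA and the TATA box TATAAA. A GC box and a CCAAT box were found in all 3 sequences, as in 32.9% and 34.5% of all promoters. In Lrig1 the GC boxes began 162 and 71 bases before the start and the CCAAT box 179 bases before it. Lrig2 had its GC box at 96 bases and CCAAT boxes at 60 and 26 bases, and Lrig3 had them at 6 and 73 bases. The E-box, held by 6.05% of promoters, and the GGCGCC site, held by 9.54%, occurred in Lrig3, at 98 and 131 bases. None of the other 5 motifs was found in these windows. A match describes letters and not a bound site.

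Lrig1 was the most abundant of the 3 and rose in both quiescent conditions, most in BMP/FGF. In EGF/FGF it stood at 420.1 and 454 CPM in the ANS4 libraries and at 378 and 388 CPM in the BL6 libraries. In BMP the values were 639 and 712 CPM in ANS4 and 593.5 and 639.8 CPM in BL6. In BMP/FGF they were 850.0 and 778.5 CPM in ANS4 and 853 and 835 CPM in BL6. The 3 conditions did not overlap. The log2 fold change over EGF/FGF was 0.66 in BMP (SE 0.0673, edgeR FDR 6.21e-08) and 1.02 in BMP/FGF (SE 0.0677, FDR 1.69e-10), and BMP/FGF exceeded BMP by 0.36 (SE 0.067, FDR 0.000354), a 1.29-fold difference.

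Lrig2 rose more than Lrig1 in BMP and then stood lower again when FGF2 was present with BMP4. In EGF/FGF it had 18.6 and 20.3 CPM in ANS4 and 18.5 and 20.3 CPM in BL6. In BMP it had 37.3 and 40.3 CPM in ANS4 and 41.9 and 38.4 CPM in BL6. In BMP/FGF it had 32.8 and 28.3 CPM in ANS4 and 34.7 and 33.8 CPM in BL6. All 4 BMP libraries were above all 4 BMP/FGF libraries, which in turn were above all 4 EGF/FGF libraries. On the log2 scale Lrig2 was 1.02 higher in BMP than in EGF/FGF (SE 0.0756, FDR 6.81e-10), 0.74 higher in BMP/FGF (SE 0.0763, FDR 7.58e-08), and fell by 0.29 from BMP to BMP/FGF (SE 0.0732, FDR 0.00463).

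Lrig3, which had the fewest counts of the 3 in every library, rose in BMP, and its level in BMP/FGF lay close to that in EGF/FGF. The EGF/FGF libraries had 11.7 and 11.01 CPM in ANS4 and 9.32 and 11.6 CPM in BL6. The BMP libraries had 14.35 and 15.3 CPM in ANS4 and 17.3 and 16.8 CPM in BL6. The BMP/FGF libraries had 13.8 and 12.3 CPM in ANS4 and 11.6 and 13.35 CPM in BL6. BMP stood apart from both other conditions, whereas BMP/FGF and EGF/FGF overlapped. The rise in BMP was 0.54 on the log2 scale (SE 0.0994, FDR 7.21e-05), and BMP/FGF was 0.32 below BMP (log2 fold change -0.32, SE 0.0985, FDR 0.0155). Without BL6 BMP/FGF replicate 1 that last difference was -0.26 with FDR 0.0677, and without BL6 BMP replicate 1 it was -0.28 with FDR 0.0504. Between BMP/FGF and EGF/FGF Lrig3 differed by 0.23 (SE 0.101) and missed the threshold at FDR 0.0505. This value lies at the edge, with FDR between 0.0307 and 0.236 over 22 alternative settings.

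**Figure D1:**
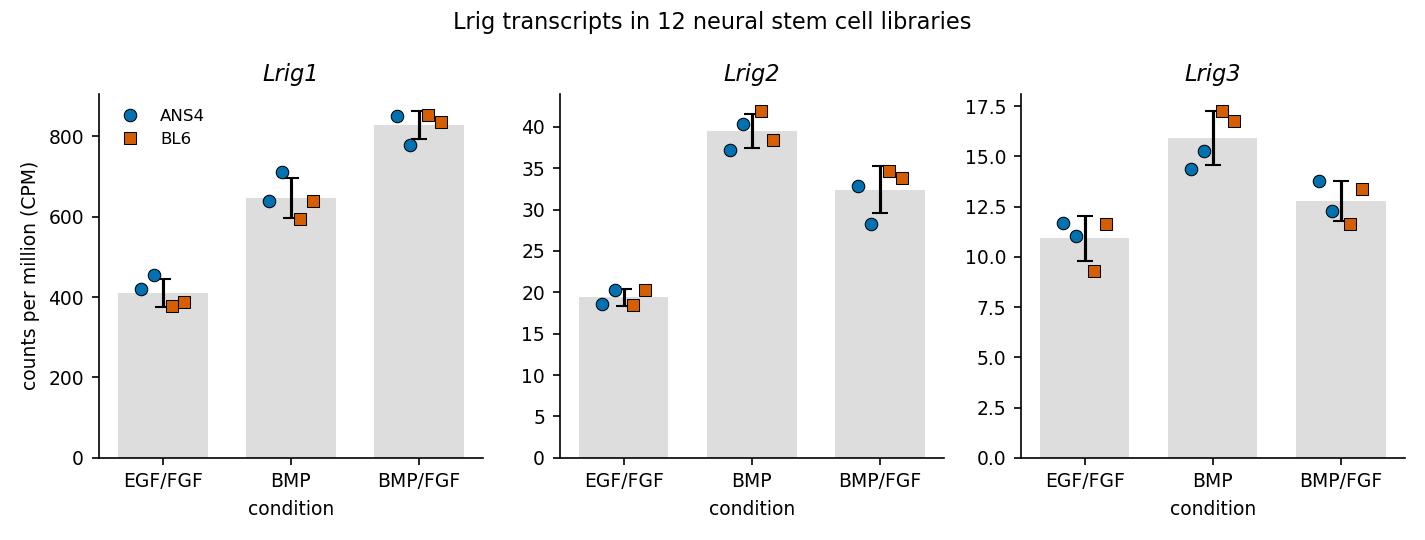
Level of each Lrig gene in CPM (y axis, from 0, own scale per panel) by condition, with 1 point per library (circles ANS4, squares BL6), bars at the mean of 4 libraries and error bars of 1 SD. Lrig1 rises from a mean of 410.0 to 646 and 829 CPM, whereas Lrig2 and Lrig3 peak in BMP at means of 39.5 and 15.9 CPM.

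The share of all tested genes called higher than in EGF/FGF was 40.6% in BMP and 40.8% in BMP/FGF, and the share called lower was 38.7% and 37.8%. All 3 Lrig genes were called higher in BMP and 2 of 3 in BMP/FGF. Between BMP/FGF and BMP 19.9% of tested genes were higher, Lrig1 among them, and 21.2% were lower, Lrig2 and Lrig3 among them. The fold threshold of the study, an absolute log2 fold change above 1.5, was passed together with FDR under 0.05 by 18.1%, 17.1% and 1.72% of tested genes in BMP against EGF/FGF, BMP/FGF against EGF/FGF and BMP/FGF against BMP, and by no Lrig gene. In BMP against EGF/FGF, 30.3% of tested genes had a larger absolute change than Lrig2, 47.3% than Lrig1 and 54.7% than Lrig3. In BMP/FGF against BMP these shares were 36.7% for Lrig2, 27.5% for Lrig1 and 32.4% for Lrig3. Of the genes higher in BMP than in EGF/FGF, 14.1% (771 genes) were higher still in BMP/FGF, the class of Lrig1, and 30.2% (1653 genes) were lower in BMP/FGF than in BMP, the class of Lrig2 and Lrig3. The 3 comparisons share libraries and are not independent. How often conditions do not overlap for other genes is not given here.

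**Figure D2:**
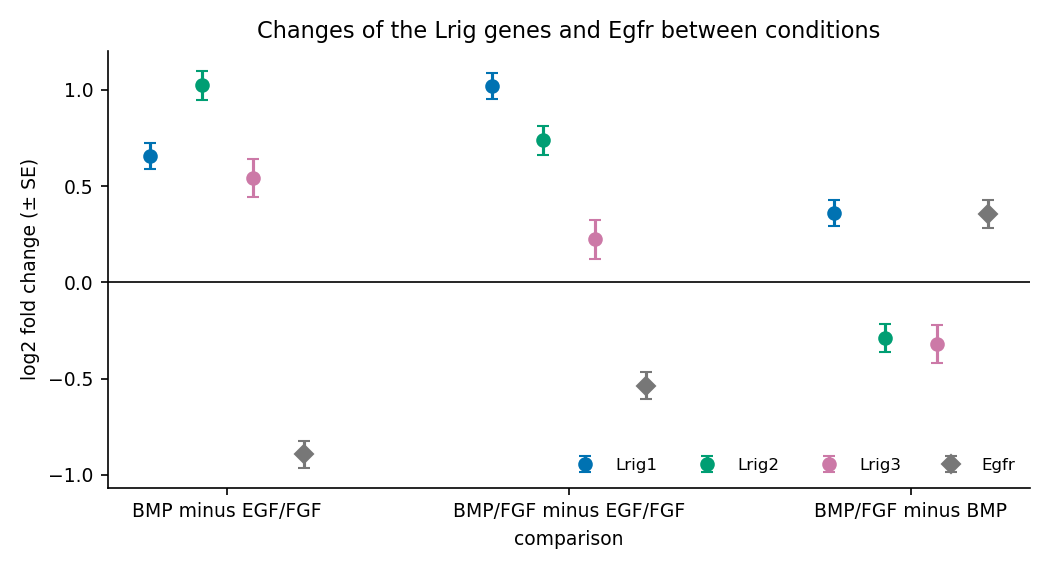
Log2 fold change (y axis) of the Lrig genes and of Egfr in the 3 comparisons (x axis), from edgeR over 12 libraries, with error bars of 1 SE. Between BMP/FGF and BMP, Lrig1 (0.36) and Egfr (0.36) lie above 0 and Lrig2 (-0.29) and Lrig3 (-0.32) below it.

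The paralogs were next compared with Lrig1 directly, through the ratio of their counts within a library, which does not depend on how libraries are scaled. Over 3 ratios and 3 comparisons, 9 differences were examined with a two-sided exact permutation test of 4 against 4 libraries, for which 0.0286 is the smallest possible p. The log2 ratio of Lrig2 to Lrig1 was -4.40 ± 0.115 in EGF/FGF, -4.03 ± 0.143 in BMP and -4.68 ± 0.0755 in BMP/FGF (SD, n = 4). All 3 conditions stood apart. How often ratios of other gene pairs stand apart is not given here. The ratio was 1.29-fold higher in BMP than in EGF/FGF (log2 difference 0.37, SE 0.0915, exact p = 0.0286), 1.22-fold lower in BMP/FGF than in EGF/FGF (-0.28, SE 0.0686, exact p = 0.0286) and 1.57-fold lower in BMP/FGF than in BMP (-0.65, SE 0.0808, exact p = 0.0286). Within ANS4 these differences were 0.37, -0.25 and -0.62, and within BL6 0.37, -0.32 and -0.68.

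The log2 ratio of Lrig3 to Lrig1 was -5.23 ± 0.146 in EGF/FGF, -5.34 ± 0.203 in BMP and -6.02 ± 0.117 in BMP/FGF (SD, n = 4). EGF/FGF and BMP overlapped, with a difference of -0.11 (SE 0.125, exact permutation p = 0.4) that was -0.24 in ANS4 and 0.02 in BL6. BMP/FGF lay below both, by 1.73-fold against EGF/FGF (-0.79, SE 0.0938, exact p = 0.0286) and by 1.60-fold against BMP (-0.68, SE 0.117, exact p = 0.0286). The step from BMP to BMP/FGF was -0.46 in ANS4 and -0.90 in BL6. Lrig3 relative to Lrig2 was lower in both quiescent conditions than in EGF/FGF, by 0.48 (log2 difference -0.48, SE 0.0821, exact p = 0.0286) and 0.51 (log2 difference -0.51, SE 0.107, exact p = 0.0286), and groups did not overlap. Between BMP/FGF and BMP that ratio differed by -0.03 (SE 0.0956, exact permutation p = 0.83), with 0.16 in ANS4 and -0.22 in BL6. Permuted within lines, no ratio can reach an exact p below 0.0556.

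**Figure D3:**
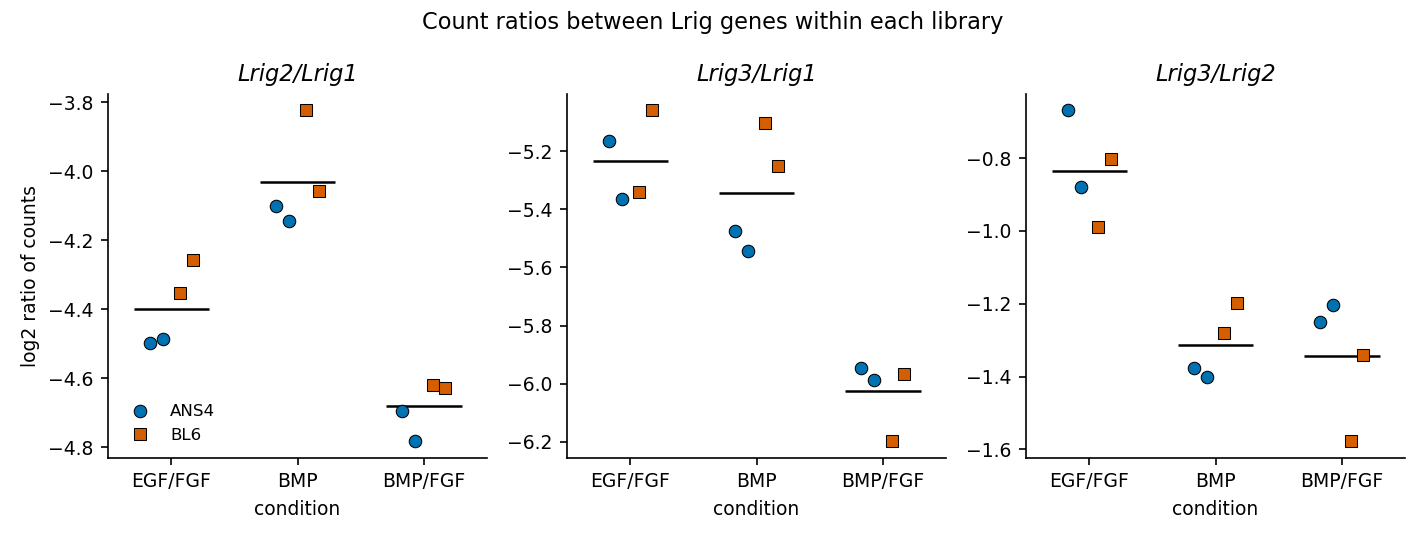
Log2 ratio of counts of 2 Lrig genes within a library (y axis, own scale per panel) by condition, with 1 point per library (circles ANS4, squares BL6) and a line at the mean. The 4 BMP/FGF libraries lie below all others for Lrig2/Lrig1 and for Lrig3/Lrig1.

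Levels of different genes were compared per kilobase of the longest coding transcript. On this scale Lrig1 had a mean of 82.8 ± 6.99 CPM per kb in EGF/FGF, 130.5 ± 9.94 in BMP and 167.5 ± 7.01 in BMP/FGF (SD, n = 4). Lrig2 had 2.73 ± 0.141, 5.56 ± 0.291 and 4.56 ± 0.4 CPM per kb, and Lrig3 had 2.72 ± 0.277, 3.96 ± 0.334 and 3.18 ± 0.246 CPM per kb in the same conditions. Lrig1 thus exceeded Lrig2 per length 30.3 ± 2.38-fold in EGF/FGF, 23.5 ± 2.23-fold in BMP and 36.8 ± 1.95-fold in BMP/FGF. It exceeded Lrig3 30.6 ± 3.07-fold, 33.2 ± 4.59-fold and 52.9 ± 4.46-fold. These folds depend on the length used: with the median length of all annotated transcripts they were 96.0, 74.5 and 117 over Lrig2 and 87.0, 94.4 and 150.4 over Lrig3, and without length 21.1, 16.4 and 25.7 over Lrig2 and 37.8, 40.9 and 65.2 over Lrig3. The ratio of Lrig2 to Lrig3 per length in EGF/FGF ran from 0.899 to 1.12, below and above 1, and in the quiescent conditions Lrig2 was the higher in every library, 1.30 to 1.49 times in BMP and, in BMP/FGF, 1.30 to 1.69 times. The EGF/FGF range was 0.806 to 1.01 with median lengths and 1.59 to 1.98 without length, so the order of Lrig2 and Lrig3 in EGF/FGF is not settled by these data.

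Of the summed family level per length, Lrig1 held 93.8 ± 0.461% in EGF/FGF, 93.2 ± 0.74% in BMP and 95.6 ± 0.136% in BMP/FGF (SD, n = 4). The sum itself was 88.3 ± 7.17, 140.0 ± 9.72 and 175 ± 7.44 CPM per kb, without overlap between conditions. Lrig2 held 3.11 ± 0.236%, 3.99 ± 0.377% and 2.60 ± 0.133%, and Lrig3 held 3.09 ± 0.302%, 2.85 ± 0.381% and 1.82 ± 0.141%. Among 13038 tested genes with a coding transcript length, 93.8% were lower than Lrig1 in EGF/FGF, 97.0% in BMP and 97.7% in BMP/FGF. For Lrig2 these shares were 26.1%, 37.6% and 34.2%, and for Lrig3 26.0%, 30.9% and 27.5%.

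Counting error sets how finely the paralogs could be resolved. Lrig2 had 355 to 809 counts and Lrig3 179 to 333 counts per library, which give a coefficient of variation from counting alone of 3.68 to 5.17% for Lrig2 and 5.80 to 6.89% for Lrig3 against 0.813 to 1.12% for Lrig1. The measured coefficient of variation over 4 libraries was 5.16 to 8.78% for Lrig2, 7.75 to 10.2% for Lrig3 and 4.19 to 8.44% for Lrig1. Most of the spread of Lrig1 therefore lay between libraries, which span both lines, whereas for Lrig3 counting made up a large part of it. For Lrig2 counting alone gave 5.17% against 5.16% measured in EGF/FGF. The values were 3.68% against 5.22% in BMP and 4.12% against 8.78% in BMP/FGF.

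The 2 lines were compared next. Averaged over the conditions, BL6 minus ANS4 was -0.09 for Lrig1 (log2 scale, FDR 0.134), 0.07 for Lrig2 (FDR 0.489) and 0.00 for Lrig3 (FDR 0.99), in a fit that called 11.6% of genes. The change from EGF/FGF to BMP differed between lines in 8.49% of genes, that from EGF/FGF to BMP/FGF in 4.82% and that from BMP to BMP/FGF in 13.5%, and no Lrig gene was called in any of them. Leaving out 1 library moved these counts: the first count, of 1158 genes, was 584 without ANS4 BMP replicate 1 and 2405 without BL6 BMP replicate 1, the second, of 658, was 177 without BL6 BMP/FGF replicate 2 and 1353 without BL6 BMP replicate 2, and the third, of 1836, was 893 without BL6 BMP/FGF replicate 2 and 2789 without BL6 BMP replicate 1. The count of 1576 genes for the mean line difference ran from 900 without BL6 BMP/FGF replicate 1 to 2351 without BL6 BMP replicate 2. No Lrig gene was called with any library left out. With all 12 libraries, the lowest FDR for a change that differed between lines was that of Lrig1 in BMP/FGF against EGF/FGF. There the BL6 change exceeded the ANS4 change by 0.24 (SE 0.0966, FDR 0.166, unadjusted p = 0.0219). For Lrig3 the BMP rise was 0.38 in ANS4 and 0.71 in BL6, a difference of 0.30 (SE 0.172, FDR 0.308), and its fall from BMP to BMP/FGF was steeper in BL6 by 0.25 (difference -0.25, SE 0.169, FDR 0.364). Fitted in ANS4 alone, Lrig3 was -0.18 in BMP/FGF against BMP (FDR 0.199), and fitted in BL6 alone, Lrig2 was -0.23 (FDR 0.0706). The other called changes of the Lrig genes passed in both lines when each was fitted alone.

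Egfr, the receptor that LRIG1 restrains, moved against Lrig1 on leaving EGF/FGF and with it on adding FGF2 to BMP4. Its mean was 353.5 ± 10.8 CPM in EGF/FGF, 191 ± 26.5 in BMP and 243 ± 7.01 in BMP/FGF (SD, n = 4). It fell by 0.89 on the log2 scale in BMP (SE 0.071, FDR 1.89e-09) and by 0.54 in BMP/FGF (SE 0.0704, FDR 1.63e-06), and was 0.36 higher in BMP/FGF than in BMP (SE 0.0709, FDR 0.000687). From BMP to BMP/FGF the mean log2 CPM of Egfr rose by 0.161 in ANS4 and by 0.555 in BL6. For Lrig1 these rises were 0.27 and 0.454. The ratio of Lrig1 to Egfr per length was 2.39 ± 0.142 in EGF/FGF, 7.04 ± 0.749 in BMP and 7.03 ± 0.141 in BMP/FGF. Its height depends on the length used, here 10208 bases for Egfr. Without length, the EGF/FGF means were 410.0 CPM for Lrig1 and 353.5 CPM for Egfr. Per length, the EGF/FGF libraries spanned 2.26 to 2.59, and every quiescent library was above them. BMP libraries stood at 6.33 to 8.08 and BMP/FGF libraries at 6.89 to 7.17, which overlapped. From BMP to BMP/FGF the mean ratio went from 6.52 to 7.03 in ANS4 and from 7.56 to 7.03 in BL6.

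Of 10 receptors that LRIG proteins bind or restrain, 9 were tested and Ret, with at most 6 counts, was not. In BMP 7 were higher and 1 lower than in EGF/FGF, against 40.6% and 38.7% of all tested genes, with a median log2 fold change of 1.24 against 0.02. In BMP/FGF 7 were higher and 1 lower, against 40.8% and 37.8%, with a median of 0.76. Ntrk2, the receptor of BDNF, had 458 CPM in EGF/FGF, 3883 CPM in BMP and 3674 CPM in BMP/FGF (log2 fold changes 3.09 and 3.01, FDR 1.42e-15 and 2.01e-15). Erbb4, a neuregulin receptor, went from 0.207 to 5.41 and 3.105 CPM (log2 fold changes 4.62 and 3.88, FDR 1.05e-10 and 3.8e-09), and Erbb3 rose from 0.272 to 1.69 CPM in BMP/FGF (2.60, FDR 4.54e-07), both at low levels. Between BMP/FGF and BMP, where 19.9% of tested genes were higher and 21.2% lower, 3 receptors were higher, Egfr, Erbb3 and Met, and 2 were lower, Erbb4 (-0.74, FDR 0.0047) and Pdgfra (-0.47, FDR 0.0112). Scaled by library size alone, or tested with DESeq2, 1 of the 3 remained, Egfr. The count of 3 was also 1 without ANS4 BMP replicate 1, BL6 BMP replicate 2 or either BL6 BMP/FGF library, and the count of 2 was 1 without BL6 BMP replicate 1. Erbb4 had 5.41 ± 2.52 CPM in BMP and 3.105 ± 0.482 CPM in BMP/FGF (SD). Pdgfra had 73.1 ± 24.2 CPM in BMP and 51.6 ± 0.838 CPM in BMP/FGF.

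Of 14 other inhibitors of receptor tyrosine kinase signalling, all tested, most were lower in the quiescent conditions, where Lrig1 was higher. In BMP 10 were lower and 2 higher (median -1.09), against 38.7% and 40.6% of all tested genes, and in BMP/FGF 11 were lower and 1 higher (median -0.53), against 37.8% and 40.8%. Spry4 and Spry1, feedback inhibitors induced by FGF signalling, fell from 132 and 75.9 CPM in EGF/FGF to 10.75 and 8.09 CPM in BMP (log2 fold changes -3.62 and -3.23, FDR 5.27e-17 and 1.14e-14). Spry2 fell as well in BMP, from 186 to 66.7 CPM (-1.48, FDR 2.13e-13). In BMP/FGF Spry4 stood at 21.2 CPM (-2.64 against EGF/FGF, FDR 8.32e-16), Spry1 at 14.5 CPM (-2.39, FDR 2.4e-13) and Socs5, which lowers EGFR, at 23.0 CPM against 52.8 CPM (-1.20, FDR 1.07e-10). From BMP to BMP/FGF 7 of the 14 were higher and 4 lower, against 19.9% and 21.2% of all tested genes (median 0.26 against 0.00). Ptprj, a receptor phosphatase, rose from 60.5 to 119 CPM (0.98, FDR 5.32e-09), with Spry2 at 0.81 (FDR 1.9e-08) and Spry4 at 0.98 (FDR 3.69e-08). In this comparison Lrig1 was called on the side of those 7 genes, and Lrig2 and Lrig3 on the side of the 4.

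The list of BMP receptors, SMADs and the neogenin axis held 13 genes, all tested. In BMP 8 were higher and 4 lower, against 40.6% and 38.7% of all tested genes (median 0.50 against 0.02), and in BMP/FGF likewise 8 and 4, against 40.8% and 37.8% (median 0.23 against 0.02). Neo1, the neogenin gene whose product LRIG2 guards, rose from 118 CPM in EGF/FGF to 265.5 CPM in BMP (1.17, FDR 5.53e-12). In BMP/FGF it stood at 227.5 CPM (0.94, FDR 1.09e-10). Ntn1, encoding the neogenin and DCC ligand netrin-1, fell from 286.5 CPM in EGF/FGF to 75.0 CPM in BMP (-1.93, FDR 4.03e-15). In BMP/FGF its level was 107 CPM (-1.42, FDR 1.52e-13). Bmpr1b, a type I BMP receptor, rose from 59.2 CPM to 159.8 and 164 CPM (1.43 and 1.48, FDR 2.23e-11 and 1.57e-11). Between BMP/FGF and BMP 1 gene was higher, Ntn1 (0.51, FDR 2.17e-06), and 7 were lower, against 19.9% and 21.2% of all tested genes (median -0.16). The lower ones included the receptor gene Acvr2b (-0.71, FDR 0.000124) and Smad4 (-0.30, FDR 0.000698). Acvr2b had 32.2 ± 8.76 CPM in BMP and 19.4 ± 1.95 CPM in BMP/FGF (SD, n = 4). Over 17 alternative settings the count of 7 ran from 5 to 9. The count of 8 higher in BMP/FGF than in EGF/FGF ran from 6 to 8.

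The widest list held 29 other genes whose proteins join LRR and immunoglobulin domains, of which 26 were in the table and 23 were tested. In BMP 16 were higher and 3 lower (median 0.89), against 40.6% and 38.7% of all tested genes, and in BMP/FGF 17 were higher and 4 lower (median 0.65), against 40.8% and 37.8%. Islr went from 4 CPM to 120.1 CPM in BMP and 57.8 CPM in BMP/FGF (log2 fold changes 4.86 and 3.86, FDR 1.37e-14 and 2.95e-13), Lrrn3 from 19.3 to 68.4 CPM in BMP (1.82, FDR 3.6e-13), and Amigo1, which codes for an adhesion protein of axons, from 12.9 to 30.1 CPM in BMP/FGF (1.22, FDR 1.13e-09). From BMP to BMP/FGF 3 rose and 10 fell (median -0.14), against 19.9% and 21.2% of all tested genes, led by Lrrn3 (-0.86, FDR 1.1e-07), Amigo2 (0.76, FDR 3.44e-06) and Islr (-1.001, FDR 5.7e-06). Islr had an SD of 44.2 CPM over the BMP libraries and of 5.58 CPM over the BMP/FGF libraries. The count of 10 dropped to 6 without BL6 BMP replicate 2 or without either BL6 BMP/FGF library. Lrig2 and Lrig3 were thus called on the side of the 10 genes and Lrig1 on that of the 3. Per length, among 26 genes (these 23 with the Lrig genes), Lrig1 ranked 1 in EGF/FGF, at 82.8 CPM per kb against 52.4 for Ntrk2, and 2 after Ntrk2 in BMP (131 against 444) and in BMP/FGF (167 against 420.0). The next in rank was Lrrc4b in EGF/FGF and in BMP/FGF (32.4 and 39.4 CPM per kb) and Islr in BMP (54.0). Lrig2 ranked 13, 14 and 15 and Lrig3 14, 16 and 16 in EGF/FGF, BMP and BMP/FGF.

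**Figure D4:**
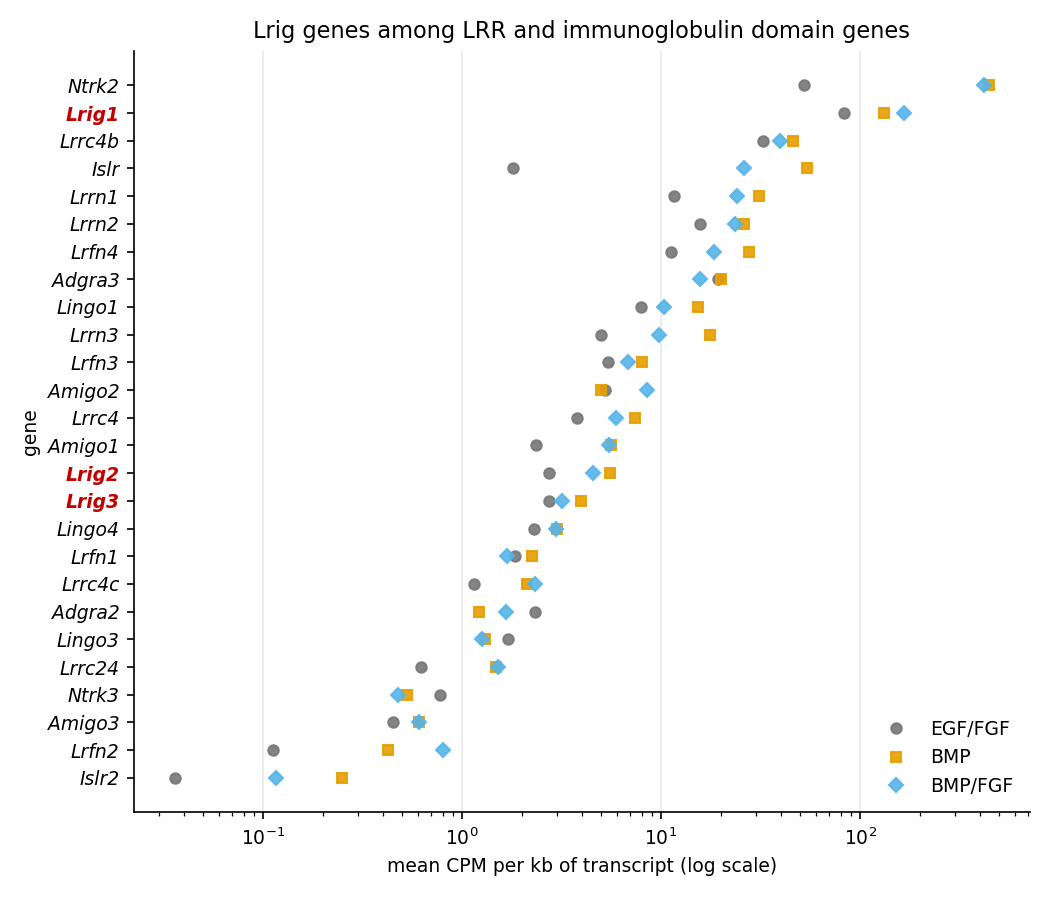
Mean level of the 23 tested LRR and immunoglobulin domain genes and of the Lrig genes (red names), in CPM per kb on a log axis, with 1 symbol per condition (4 libraries each) and genes ordered by their mean over 12 libraries. Over 12 libraries Lrig1 stands in rank 2 and Lrig2 and Lrig3 in ranks 15 and 16, and in EGF/FGF alone Lrig1 (82.8) lies above Ntrk2 (52.4).

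**Figure D5:**
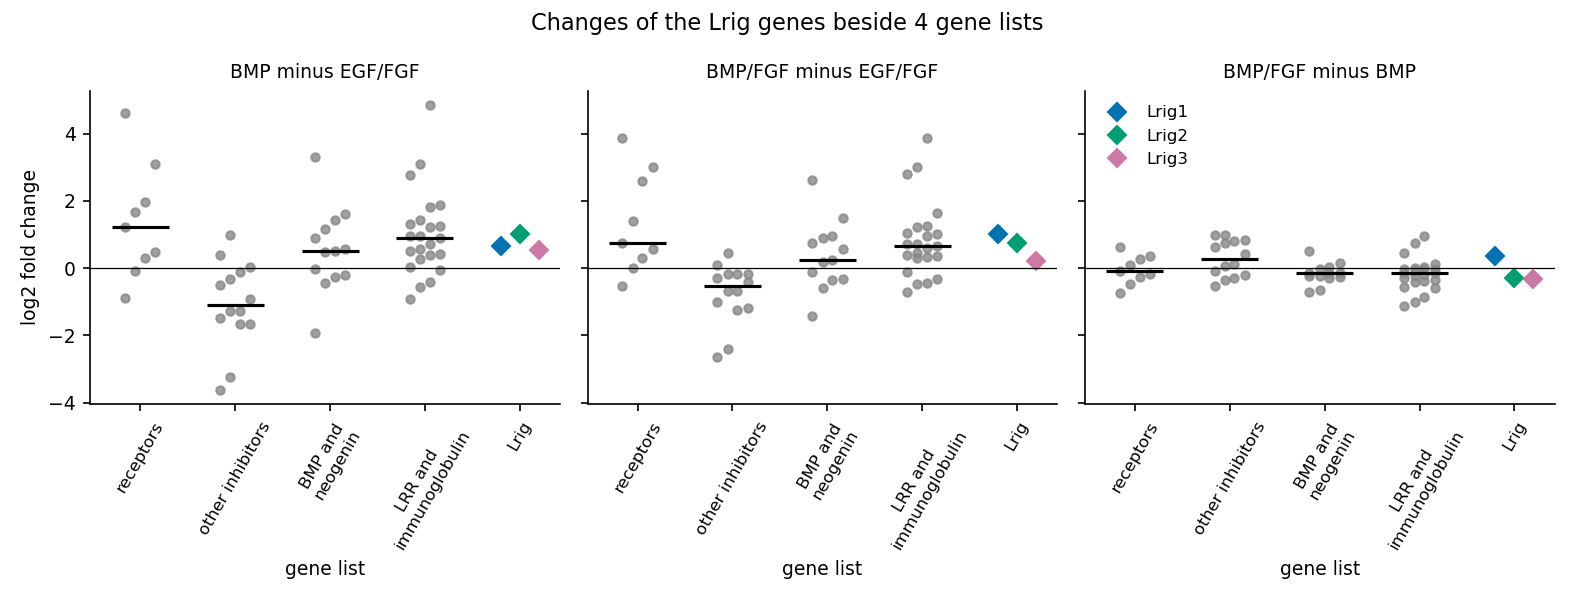
Log2 fold change (y axis) of the tested genes of 4 lists (grey points, line at the median) and of the Lrig genes (diamonds) in each comparison. The inhibitors have a median of -1.09 in BMP against EGF/FGF, where all 3 Lrig genes lie above 0.

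Patterns across the 12 libraries were compared by correlation. Pearson's r of log2 CPM (prior count 2) was 0.787 between Lrig1 and Lrig2, 0.853 between Lrig2 and Lrig3 and 0.495 between Lrig1 and Lrig3. These points share 3 conditions and 2 lines, so r describes mostly the pattern over conditions. By r with Lrig1, Lrig2 ranked 3235 and Lrig3 5013 among 12465 genes. By r with Lrig2, Lrig1 ranked 3549 and Lrig3 2856, and by r with Lrig3, Lrig1 ranked 4361 and Lrig2 469. The genes nearest to Lrig1 were Endod1, Micall2, Agt (r = 0.992 each), S100a13 and Lgals3bp (r = 0.991 each), and all 5 were highest in BMP/FGF. Endod1 for example averaged 29.6, 81.7 and 149 CPM in EGF/FGF, BMP and BMP/FGF, and Agt, the angiotensinogen gene of astrocytes, 64.0, 156 and 254 CPM. Nearest to Lrig2 were Wwc2 (r = 0.993), Dnah6 (r = 0.990), Mpdz, 1810010H24Rik and Il6st (r = 0.989 each), all highest in BMP. Il6st, encoding the gp130 receptor subunit, averaged 146, 439 and 345 CPM, and Mpdz, a tight junction scaffold gene, 65.4, 171 and 123 CPM. Nearest to Lrig3 were Tmem121b (r = 0.962), Ctnna2 (r = 0.952), Ccng2 (r = 0.946), Stmn4 (r = 0.945) and Igsf21 (r = 0.944), likewise highest in BMP. Ccng2, a cyclin of cells that leave the cycle, averaged 28.1, 51.0 and 33.4 CPM, and Ctnna2 and Stmn4, neuronal cytoskeleton genes, 0.362, 5.95 and 1.56 CPM and 0.544, 4.92 and 1.31 CPM. Of 12465 genes compared, 511 had r above 0.95 with Lrig1, 804 with Lrig2 and 2 with Lrig3. The named genes of Lrig1 and Lrig2 thus stand among many of like pattern. Since the named genes were picked by r, the condition in which they were highest follows from the choice.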

How the data were processed

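RNA of 12 mouse NSC libraries was sequenced with a low input protocol on BGISEQ-500RS. The authors trimmed reads with Trim Galore 0.5.0, estimated transcript abundance by pseudoalignment to mm10 transcripts (kallisto 0.44.0), summed it to genes with tximport and analysed the sums with DESeq2 1.27.32. The deposited table holds estimated counts per gene as whole numbers, and a second table deposited by the authors holds regularized log2 values (rlog). The strand setting of the counting is not given in the sources used here. Pseudoalignment divides reads that fit several transcripts, so that counts of overlapping genes are estimates.

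From the counts, genes were filtered with filterByExpr of edgeR 4.0.16 (3911 of 17365 not tested), scaled by TMM and fitted by quasi-likelihood over all 12 libraries with condition and line as terms, in R 4.3.3. FDR is Benjamini-Hochberg adjusted over all tested genes (threshold 0.05, two-sided). Line differences came from a fit with a mean for each line and condition (13641 genes). SE is that of the log2 fold change. CPM uses TMM-scaled totals, and marker sums use plain totals. Replicate pairs differed beyond sampling noise, and no library was a copy. Chi-square per degree of freedom between replicates was 12.4 for BL6 BMP and 2.14 to 4.77 for the other pairs. Comparisons with BMP include the BL6 BMP pair. Steps were tested on simulated data. Exact permutation tests ran in scipy 1.17.1, figures in matplotlib 3.10.9. Alternatives used DESeq2 1.42.0 and limma 3.58.1 (on rlog). Lengths came from GENCODE vM21, promoters from RefSeq (3 of 3 genes matched).

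The Lrig genes, gene lists, motifs and naming rules were chosen with earlier results of these data known. Named were the Lrig genes, Egfr, overlapping genes, up to 3 genes per list and comparison with the lowest FDR under 0.05 and a mean of at least 1 CPM, and the 5 genes with the highest r to each Lrig gene. Outside these rules, Ret, Met, Lrrc4b and the marker genes were named after their values were seen. A summed level of the oligodendrocyte lineage list is not reported here.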

Additional observations from a re-analysis of the deposited data

Results flagged for a closer look

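Among 27 groups of 4 libraries examined (level, share of the family and ratios, for each gene or pair and condition), 2 held a library far from the other 3, both through Lrig3 in BL6 BMP/FGF replicate 1. Its log2 ratio of Lrig3 to Lrig1 was -6.20, against -5.99 to -5.95 in the other 3 BMP/FGF libraries, and its Lrig3 share of the family per length was 1.61% against 1.86 to 1.91%. Chance flags about 1 in 20 such groups, and these 2 measures rest on the same counts. The library held 208 Lrig3 counts.

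The ratio of Lrig3 to Lrig2 moved in opposite directions between BMP/FGF and BMP in the 2 lines. It was higher by 0.16 (log2) in ANS4 and lower in BL6 (-0.22), a difference of -0.38. Within each line every BMP/FGF library lay on one side of every BMP library, but this sets only 2 libraries against 2. In BL6 the lowest value, -1.58, was that of BMP/FGF replicate 1, the library flagged above. The difference between the lines was not tested.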

How the results depend on the processing

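Over 22 alternatives each, no fold change of a Lrig gene turned its direction. BMP against EGF/FGF stayed past the threshold for all 3 genes, as did BMP/FGF against both other conditions for Lrig1 and BMP/FGF against EGF/FGF for Lrig2. Lrig2 in BMP/FGF against BMP was -0.23 (FDR 0.0706) in BL6 alone, and Lrig3 was -0.18 (FDR 0.199) in ANS4 alone and -0.37 to -0.26 with a library left out (FDR up to 0.0677). Lrig3 in BMP/FGF against EGF/FGF passed without the line term (0.23, FDR 0.0489) and with the 8 libraries compared (0.22, FDR 0.0424), and was 0.13 to 0.28 with a library left out. With those 8 libraries alone, the line difference of Lrig1 in BMP/FGF against EGF/FGF also passed (0.24, FDR 0.0388). Same-numbered replicates did not deviate together (r from -0.0757 to 0.0596), and the replicate block changed no call of a Lrig gene, with Lrig3 at 0.21 (FDR 0.0725) in BMP/FGF against EGF/FGF. Permuted within lines, the 7 ratio differences with exact p of 0.0286 (0.37, -0.28 and -0.65 for Lrig2/Lrig1, -0.79 and -0.68 for Lrig3/Lrig1, -0.48 and -0.51 for Lrig3/Lrig2) had the smallest p possible there, 0.0556. In single lines, without a test, Lrig3/Lrig1 in BMP/FGF against BMP was -0.46 in ANS4 and -0.90 in BL6, Lrig3/Lrig2 in BMP against EGF/FGF -0.61 and -0.34, and Lrig3/Lrig2 in BMP/FGF against BMP 0.16 and -0.22. The share of Lrig1 depended on the length used, at 97.8, 97.6 and 98.5% in EGF/FGF, BMP and BMP/FGF with median transcript lengths and at 93.1, 92.1 and 94.8% without length. Receptors higher in BMP/FGF than in BMP numbered 1 in place of 3 with library size only and with DESeq2, and 1 to 3 with a library left out. Receptors lower numbered 1 to 2 in that comparison and 1 to 2 in BMP against EGF/FGF, and LRR and immunoglobulin genes lower in BMP/FGF than in BMP numbered 6 to 10. Genes of the BMP and neogenin list numbered 5 to 9 lower in BMP/FGF than in BMP. In BMP/FGF against EGF/FGF 6 to 8 of them were higher. Of the 5 genes nearest to Lrig1, Lrig2 and Lrig3, 1, 1 and 0 were nearest by root mean square difference as well, and 1 of 5 for Lrig2 in the rlog table. Depth limits Lrig3 most.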
